A study of Homo sapiens with 4 samples.

Results

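Lysosomal glycosidases and sulfatases take sugar chains apart one residue at a time. The 8 genes described here were taken by symbol from the deposited table of 23622 genes, namely GAA, GUSB, IDS, IDUA, MAN2B1, MANBA, NAGLU and SGSH, and all 8 were present and tested. Of the enzymes they encode, 6 are glycosidases, which cut between sugars, and 2 (IDS and SGSH) are sulfatases, which remove sulfate from sugars. RNA was sequenced from MV4-11, a human acute myeloid leukemia cell line, in 2 control libraries (sh-NC) and 2 libraries with knockdown of IRF1 (sh-IRF1). IRF1 is a transcription factor of the interferon response. The labels describe the controls as untreated cells of wild-type genotype, whereas the column names and the study's methods describe a control hairpin. According to those methods, hairpins were delivered by lentivirus, the cells were selected with puromycin, and the cells were harvested after 3 days, so that sh-NC and sh-IRF1 cells shared the transduction and the selection. The hairpin used for each sh-IRF1 library is not given in the sources used here, nor is it stated whether the libraries of a group came from separate cultures. The p-values below therefore measure the spread between these libraries, which may be technical.

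Each enzyme acts inside the lysosome, the acidic compartment in which cells degrade macromolecules, and each removes only 1 type of sugar or sulfate from the end of a chain. Heparan sulfate, dermatan sulfate and other glycosaminoglycans are therefore broken down by a relay of enzymes, and the loss of any one of them stops the relay and lets the substrate build up. The inherited storage disorders named after these enzymes include Pompe disease (GAA), Hurler syndrome (IDUA), Hunter syndrome (IDS), Sanfilippo syndrome (SGSH, NAGLU), Sly syndrome (GUSB) and the alpha- and beta-mannosidoses (MAN2B1, MANBA). Monocytes and macrophages, to which MV4-11 cells are related by lineage, are rich in these enzymes.

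The relation of these genes to DNA sequence is shown first. Many lysosomal genes carry near their start the E-box CACGTG, often within the longer palindrome TCACGTGA, to which the MiT/TFE factors TFEB, TFE3, MITF and TFEC can bind. The RefSeq promoters of GRCh38.p14 each cover 250 bases before a start site and 50 after it, and only the 250 bases before it were searched. There, CACGTG occurred on either strand in 6.34% of 35116 promoters and TCACGTGA, which contains it, in 0.854%. A promoter was given for 5 of the 8 genes, and TCACGTGA was found in 1 of them, GAA, which held 2 copies. No promoter of GUSB, IDS, IDUA or MAN2B1 held CACGTG in the 250 bases searched. The promoters of MANBA, NAGLU and SGSH were not analysed here. A repeat of GAAA spaced by 2 bases, the core of the sites that interferon regulatory factors bind, was present in 3.02% of all promoters and in 0 of the 5. The windows around the GAA palindromes are printed with those of GALNS, ARSK and CTSA. These were the only matches among the 8 genes and 23 other enzymes of glycan breakdown. Of the 23, 9 of 13 for glycosaminoglycans and 9 of 10 for glycoproteins had a promoter in the table. TCACGTGA is in capitals, and each sequence reads 5′ to 3′ on the strand of its gene.
GAA, chr17:80101494-80101521, + strand, palindrome beginning 77 bases before the start: ggaggccgcgTCACGTGAcccaccgcgg
GAA, chr17:80101539-80101566, + strand, palindrome beginning 32 bases before the start: ctcccgccggTCACGTGAcccgcctctg
GALNS, chr16:88857105-88857132, - strand, palindrome beginning 175 bases before the start: aggcaccgcgTCACGTGAcccgccgctg
ARSK, chr5:95554998-95555025, + strand, palindrome beginning 93 bases before the start: caggactcatTCACGTGActggaagtgg
CTSA, chr20:45891299-45891326, + strand, palindrome beginning 26 bases before the start: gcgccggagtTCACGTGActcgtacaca
The second GAA window lies within the first exon of the GENCODE gene model, which starts before the RefSeq one. Such a match is a description of the letters and does not show that a factor was bound.

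The libraries held 17635908 and 17651512 reads (sh-NC) and 17697836 and 18695337 reads (sh-IRF1), and mitochondrial genes took 3.92 to 4.51% of them. All levels below are normalized counts, that is, reads divided by a size factor for the library. Fold changes are differences of log2(normalized count + 1), and a gene is said to have risen or fallen where the limma test gave an adjusted p under 0.05 over the 14120 genes tested. For a single gene, permuting the 4 libraries exactly (two-sided) allows no p below 0.33. IRF1 itself was measured at 785 and 738 in the sh-NC libraries and at 430 and 432 in the sh-IRF1 libraries, 56.6% of control (log2 fold change -0.82, SE 0.0904, limma adjusted p 1.69e-10). IRF1 shares 22.9% of its exonic bases with IRF1-AS1 on the opposite strand, and it is not stated whether the counting used strand. The myeloid identity was checked with 10 marker genes, all of which were listed, with FLT3 (17401 on average in sh-NC) and SPI1 (5596) high and CD14 low (40 in sh-NC and 6.41 in sh-IRF1). Of the myeloid markers, 3 rose and 5 fell, and their summed level was 28740 to 28830 in sh-NC and 25490 to 25510 in sh-IRF1. FLT3, the largest part of this sum, fell from 17401 to 12690, by more than the sum did. Of 6 lymphoid markers 2 were listed, of which CD79A rose (log2 fold change 2.20), and their summed level was 84.2 to 111.9 in sh-NC and 234.8 to 288.4 in sh-IRF1. Of 5 erythroid and platelet markers 2 were listed, at a summed 97.5 to 112 and 43.1 to 52.7. The part of these shifts in the results below was not tested, and in bulk RNA fewer cells of a type and less RNA per cell cannot be told apart.

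After IRF1 knockdown, 6 of the 8 genes rose (IDS, GUSB, GAA, MANBA, MAN2B1, IDUA), none fell, and NAGLU and SGSH did not pass the test. IDS rose most, to 231% of control, followed by GUSB at 150%, whereas the other 4 rose to between 119 and 122%. By limma, edgeR or DESeq2 none of the 8 fell, and by limma none did at an unadjusted p under 0.05 either. With the fold threshold of the study added, a log2 fold change over 0.5, the count was 2, IDS and GUSB. Over all genes tested, 20.3% rose and 21.9% fell by the adjusted p alone, and 8.27% rose and 7.56% fell with the fold threshold added. The median log2 fold change of the 8 genes was 0.27, with a range from -0.75 to 1.21, against -0.0019 over all genes tested. The middle 50% of all genes lay between -0.25 and 0.27, so that GAA, MANBA, MAN2B1 and IDUA (0.26 to 0.29) were near its upper edge. Both sh-IRF1 libraries lay above both sh-NC libraries for 6 of the 8 genes and below them for SGSH, which was true of 34.2% and 35% of all genes tested.

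**Figure D1:**
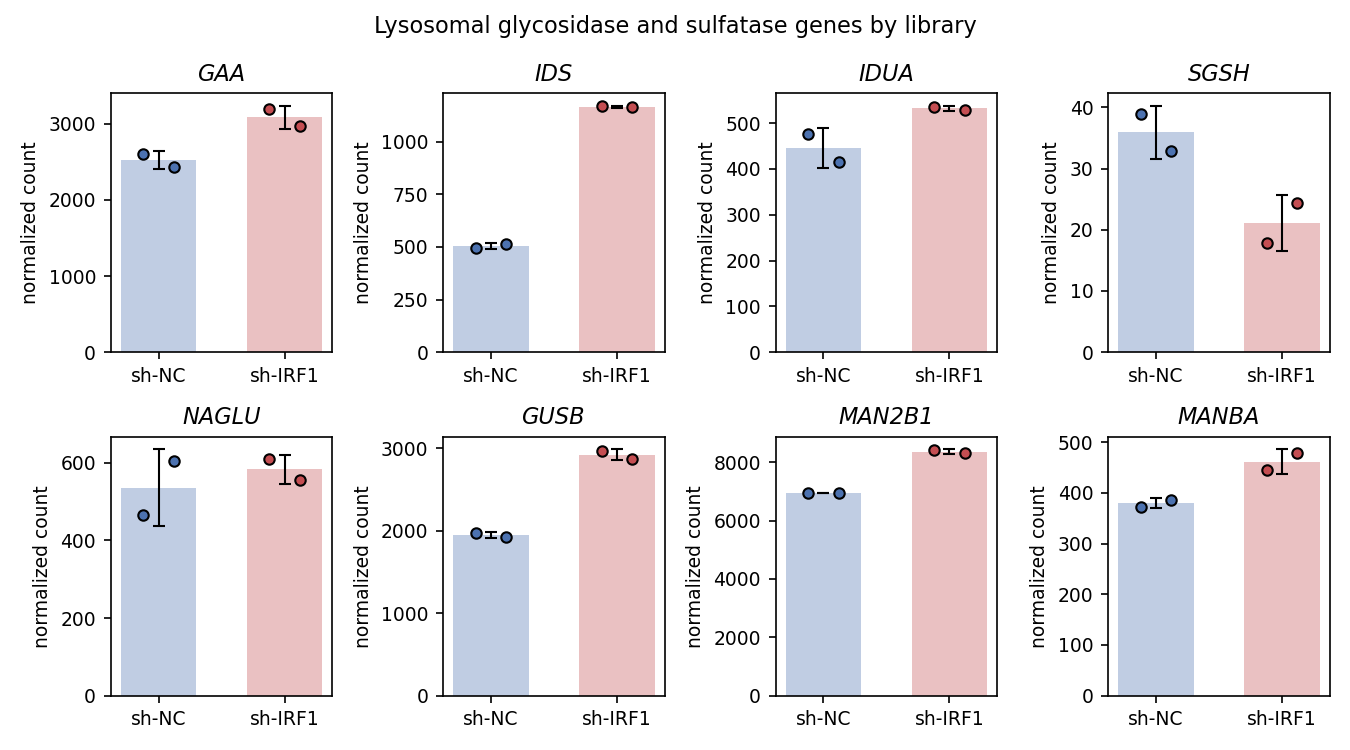
Normalized counts (y axis, from 0, with its own scale in each panel) of the 8 genes in the sh-NC and sh-IRF1 libraries; points are libraries, bars are means and error bars are SD (n = 2 per group). The sh-IRF1 libraries are above the sh-NC libraries for 6 genes and below them for SGSH, and the NAGLU libraries of the 2 groups overlap.

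The results are ordered by substrate, and glycogen comes first. GAA, acid alpha-glucosidase, is the enzyme that degrades glycogen in the lysosome (ENSG00000171298, chromosome 17, 80101533 to 80119881, + strand, GENCODE 44 on GRCh38). It was measured at 2607 and 2438 in the sh-NC libraries and at 3193 and 2978 in the sh-IRF1 libraries. The sh-IRF1 libraries were both higher, and the groups did not overlap. The mean rose from 2522 ± 119 to 3085 ± 152 (SD, n = 2), a log2 fold change of 0.29 (SE 0.0468, 95% interval 0.20 to 0.38, limma adjusted p 1.22e-06). No exonic base of GAA is shared with another gene in the annotation.

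The cytosol has its own enzymes for glycogen, and these did not move in 1 direction. Of 18 genes of cytosolic glycogen synthesis and breakdown, 14 were tested, 4 rose and 2 fell, and none passed the fold threshold (median log2 fold change 0.06). PHKB, a subunit of phosphorylase kinase, rose from 962 to 1300 (log2 fold change 0.43), and PYGL, a glycogen phosphorylase, rose from 4563 to 5161 (0.18). GYS1, glycogen synthase, fell from 3658 to 2882 (log2 fold change -0.34), and GYG1, glycogenin, which primes the particle, fell from 1018 to 753 (-0.43).

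Of the glycosaminoglycan enzymes, IDS, iduronate 2-sulfatase, takes sulfate from iduronic acid at the end of heparan and dermatan sulfate (ENSG00000010404, chromosome X, 149476988 to 149521096, - strand). It was measured at 494 and 514 in the sh-NC libraries and at 1169 and 1163 in the sh-IRF1 libraries. Each sh-IRF1 value was above both sh-NC values, and the libraries within a group were close to each other. The mean rose from 504 ± 13.5 to 1166 ± 4.24 (SD, n = 2), a log2 fold change of 1.21 (SE 0.0782, 95% interval 1.05 to 1.37, limma adjusted p 8.84e-18). The annotation assigns 75.9% of the exonic bases of IDS to other genes as well, nearly all of them to ENSG00000241489, a protein-coding gene on the same strand, which held 1 and 2 reads in sh-NC and 7 and 0 in sh-IRF1. The pseudogene IDSP1 held 0 to 4 reads, at most 0.8% of the number counted for IDS. The annotation the authors counted with is not given, so how reads in the shared exons were assigned is unknown.

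IDUA, alpha-L-iduronidase, acts on the chain end that IDS leaves and removes the iduronic acid (ENSG00000127415, chromosome 4, 986997 to 1004564, + strand). It was measured at 477 and 415 in the sh-NC libraries and at 536 and 528 in the sh-IRF1 libraries. The groups did not overlap, although the 2 controls differed from each other by about as much as the higher one from the sh-IRF1 libraries. The mean rose from 446 ± 43.9 to 532 ± 5.44 (SD, n = 2), a log2 fold change of 0.26 (SE 0.0996, 95% interval 0.06 to 0.46, limma adjusted p 0.0328). This call was lost with DESeq2 (adjusted p 0.0942) and when sh-NC replicate 2, sh-IRF1 replicate 1 or sh-IRF1 replicate 2 was left out (limma adjusted p 0.294, 0.147 and 0.118), and without sh-NC replicate 2 the log2 fold change was 0.16. IDUA shares 13.2% of its exonic bases with SLC26A1 on the opposite strand, which held 208 and 219 reads in sh-NC and 244 and 288 in sh-IRF1, and it is not stated whether the counting used strand.

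SGSH, sulfamidase, frees the amino group of glucosamine in heparan sulfate from its sulfate (ENSG00000181523, chromosome 17, 80206716 to 80220923, - strand). It was the least abundant of the 8 genes, at 39 and 32.9 in the sh-NC libraries and 17.9 and 24.4 in the sh-IRF1 libraries, which correspond to 38, 32, 18 and 26 reads. Both sh-IRF1 values were below both sh-NC values. The means were 35.9 ± 4.32 and 21.1 ± 4.57 (SD, n = 2), and the log2 fold change was -0.75 with a 95% interval from -1.55 to 0.05 (SE 0.396, limma adjusted p 0.126). A change could not be called at this depth, and the interval reaches from a decrease larger than the rise of IDS to a slight increase.

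NAGLU, alpha-N-acetylglucosaminidase, removes the glucosamine after it has been acetylated (ENSG00000108784, chromosome 17, 42536241 to 42544449, + strand). It was measured at 466 and 606 in the sh-NC libraries and at 610 and 557 in the sh-IRF1 libraries. The groups overlapped, and the lowest value was that of sh-NC replicate 1. The means were 536 ± 99.2 and 583 ± 37.6 (SD, n = 2), and the log2 fold change was 0.13 (SE 0.101, 95% interval -0.07 to 0.34, limma adjusted p 0.302). Its value rested on the controls, since it was -0.06 without sh-NC replicate 1 and 0.32 without sh-NC replicate 2 (limma adjusted p 0.0142 for the latter).

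GUSB, beta-glucuronidase, removes glucuronic acid from heparan, dermatan and chondroitin sulfate (ENSG00000169919, chromosome 7, 65960684 to 65982215, - strand). It was measured at 1977 and 1926 in the sh-NC libraries and at 2966 and 2871 in the sh-IRF1 libraries. The gap between the groups was many times the difference within either. The mean rose from 1951 ± 36 to 2919 ± 67.4 (SD, n = 2), a log2 fold change of 0.58 (SE 0.0476, 95% interval 0.48 to 0.68, limma adjusted p 2.63e-14). GUSB has 11 named pseudogenes in the table, whose summed reads amounted to 5.97 to 10.1% of its own. The largest, GUSBP1, held 131 and 108 reads in sh-NC and 99 and 161 in sh-IRF1. Reads that match GUSB and a pseudogene equally well may have been lost or split between them.

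The 2 mannosidases act on the glycans of glycoproteins. MAN2B1, lysosomal alpha-mannosidase, trims the alpha-linked mannoses (ENSG00000104774, chromosome 19, 12646511 to 12666742, - strand). It was the most abundant of the 8 genes, at 6935 and 6955 in the sh-NC libraries and 8419 and 8306 in the sh-IRF1 libraries. The controls differed little from each other, and both sh-IRF1 libraries were above them. The mean rose from 6945 ± 13.6 to 8363 ± 79.9 (SD, n = 2), a log2 fold change of 0.27 (SE 0.0321, 95% interval 0.20 to 0.33, limma adjusted p 1.56e-09). MANBA, beta-mannosidase, cleaves the last mannose of the chain (ENSG00000109323, chromosome 4, 102630770 to 102760994, - strand). It was measured at 373 and 387 in the sh-NC libraries and at 445 and 479 in the sh-IRF1 libraries, with no overlap. The mean rose from 380 ± 9.78 to 462 ± 24.2 (SD, n = 2), a log2 fold change of 0.28 (SE 0.105, 95% interval 0.07 to 0.49, limma adjusted p 0.0293). This call was lost with DESeq2 (adjusted p 0.0782) and when sh-NC replicate 1, sh-IRF1 replicate 1 or sh-IRF1 replicate 2 was left out (limma adjusted p 0.108, 0.0547 and 0.209). MAN2B1 and MANBA share 21.2% and 11.3% of their exonic bases with other genes.

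**Figure D2:**
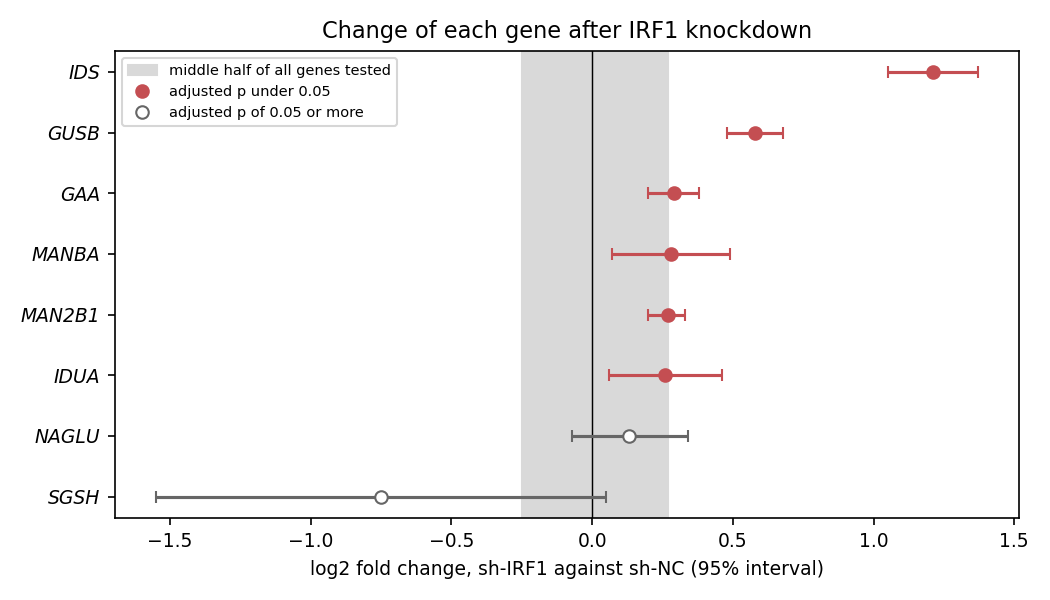
Log2 fold change after knockdown (x axis) for each of the 8 genes, with limma's 95% interval; filled points passed an adjusted p of 0.05, and the grey band holds the middle 50% of all 14120 genes tested (-0.25 to 0.27). IDS at 1.21 and GUSB at 0.58 lie well above the band, GAA and MANBA at its upper edge, and SGSH at -0.75 below it with the widest interval.

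Levels of different genes were compared per kilobase of merged exons. In the sh-NC libraries the normalized count per kilobase was 1290 ± 2.53 for MAN2B1, 501 ± 9.24 for GUSB, 480 ± 22.6 for GAA, 183 ± 33.8 for NAGLU, 110 ± 10.8 for IDUA, 54.2 ± 1.46 for IDS, 32.4 ± 0.833 for MANBA and 5.39 ± 0.649 for SGSH (SD, n = 2). GUSB and GAA were the only neighbours in this order that differed by no more than their spread. In the sh-IRF1 libraries the normalized count per kilobase was 750 ± 17.3 for GUSB and 587 ± 29 for GAA, and IDS, at 125 ± 0.457, came close to IDUA at 131 ± 1.34. The place of IDS depends on the exons counted. Its whole count divided by the kilobases that it shares with no other gene was 225 in sh-NC and 521 in sh-IRF1. These values hold only if no counted read came from the shared exons, which is unknown.

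The 8 genes together summed to 739 and 732 RPM (reads scaled to the total of the library) in sh-NC, against 986 and 965 RPM in sh-IRF1. MAN2B1 supplied 51.9 and 52.4% of these reads in sh-NC and 48.5 and 49.1% in sh-IRF1, whereas the share of IDS was 3.7 and 3.87% in sh-NC and 6.73 and 6.88% in sh-IRF1. The makeup of the group thus shifted towards IDS. Within each library the level of IDS was also set against that of each other gene, a ratio that does not depend on the scaling of the libraries, and IDS was singled out for this after its values were seen. On the log2 scale, the ratio of IDS to each of the other 7 genes was higher in each of the knockdown libraries than in any control library. The mean difference was smallest against GUSB (0.63), 0.92 to 0.95 against GAA, MANBA, MAN2B1 and IDUA, 1.08 against NAGLU and largest against SGSH (1.96). These mean differences restate the fold changes above and are not a separate result. They had to be positive, because IDS was chosen as the gene with the largest rise.

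The enzymes can be placed beside those that act on the same chains. The routes were written down from textbook knowledge with the values already known, some enzymes serve several routes, and the routes are not complete, so that their counts cover only the enzymes shown. Of 8 enzymes of heparan sulfate breakdown, 5 rose and 3 did not pass (median log2 fold change 0.35). The route starts with HPSE, the heparanase that cuts inside the chain, which stood at 235 in sh-NC and 234 in sh-IRF1 (log2 fold change 0.00, 95% interval -0.28 to 0.28). HGSNAT, the membrane enzyme that acetylates glucosamine between the steps of SGSH and NAGLU, rose from 1768 to 2396 (log2 fold change 0.44, limma adjusted p 5.11e-10). ARSG, a sulfatase that acts on sulfated glucosamine, rose from 87.3 to 173 (0.99). Of the 3 consecutive steps at glucosamine by SGSH, HGSNAT and NAGLU, the step of HGSNAT was thus the one whose gene passed the test.

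Dermatan and chondroitin sulfate share IDS, IDUA and GUSB with this route, and of the 7 enzymes shown 6 rose and 1 did not pass (median log2 fold change 0.58). ARSB, the sulfatase of galactosamine in dermatan sulfate, rose from 1442 to 2627 (log2 fold change 0.86, limma adjusted p 7.54e-19). HEXA, a hexosaminidase subunit, rose from 376 to 775 (log2 fold change 1.04, 95% interval 0.86 to 1.23). HYAL1, a hyaluronidase, was near the detection limit with means of 19.5 ± 8.69 and, after knockdown, 10.1 ± 1.62 (SD, n = 2, limma adjusted p 0.248).

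Of 9 enzymes and partners of glycoprotein glycan breakdown shown, 7 rose and 2 did not pass (median log2 fold change 0.37). NEU1, the sialidase, rose from 700 to 1877 (log2 fold change 1.42, limma adjusted p 3.01e-23), and CTSA, the protective protein that binds NEU1 and GLB1 in a complex, rose from 2074 to 4918 (1.25, limma adjusted p 3.17e-28). GLB1, beta-galactosidase, the other partner of this complex, rose less, from 1668 to 2155 (log2 fold change 0.37). FUCA1, alpha-fucosidase, rose from 293 to 551 (0.91), whereas AGA, which cuts the link to asparagine, stood at 380 and 355 (log2 fold change -0.10, limma adjusted p 0.499). HGSNAT, ARSG, HEXA, GLB1, HPSE, HYAL1, FUCA1 and AGA were named for their place in these routes, after their values had been seen.

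**Figure D3:**
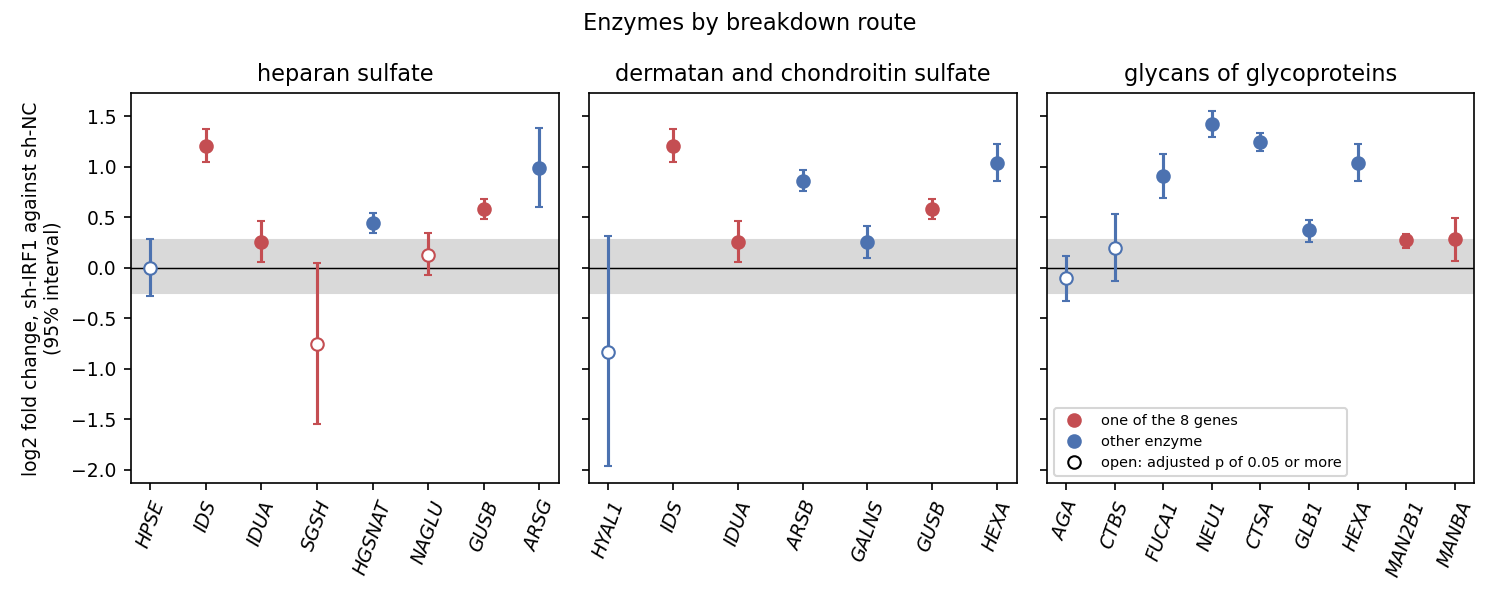
Log2 fold change after knockdown (y axis) with limma's 95% interval for enzymes of 3 breakdown routes; red marks the 8 genes, blue other enzymes, open symbols an adjusted p of 0.05 or more, and the grey band the middle 50% of all genes tested (-0.25 to 0.27). The filled points of the enzymes shown lie above 0, and the widest intervals are those of HYAL1 and SGSH.

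Sorted by reaction, 7 of the lysosomal sulfatases are given here, including ARSA, the sulfatase of the glycolipid sulfatide. Of these 7, 5 rose, and SGSH and ARSK did not pass (median log2 fold change 0.58). IDS at 1.21 was the highest, followed by ARSG (0.99), ARSB (0.86), ARSA (0.58) and GALNS (0.26). Each sulfatase becomes active only after SUMF1 has converted a cysteine in its active site to formylglycine. SUMF1 rose from 336 to 603 (log2 fold change 0.84, 95% interval 0.64 to 1.05, limma adjusted p 1.64e-09), and its paralog SUMF2 stood at 1764 and 1746 (-0.02). Of 9 non-lysosomal sulfatases, 2 passed the filter on low values, and both rose: ARSD from 493 to 981 (log2 fold change 0.99) and STS, steroid sulfatase, from 479 to 795 (0.73). The sulfatase class and SUMF2, ARSA and ARSK were also chosen with their values known.

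Beyond the 8 genes, the 13 other enzymes of glycosaminoglycan breakdown had a median log2 fold change of 0.37, with 8 that rose and 1 that fell, and the 10 other enzymes of glycoprotein glycan breakdown a median of 0.48, with 7 that rose and none that fell. With the fold threshold, 10 of these 23 rose. The 8 genes, with a median of 0.27, were thus not higher than the neighbouring enzymes. A difference between the lists was not tested.

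Glycosidases reach the lysosome through the mannose 6-phosphate pathway. Of 11 genes of activation and delivery, 7 rose, none fell and 4 did not pass (median log2 fold change 0.25). IGF2R, the larger mannose 6-phosphate receptor, rose from 8286 to 11270 (log2 fold change 0.44, limma adjusted p 4.47e-17). SUMF1 was the other gene that led this list.

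Glycosidases and related proteins that trim glycans outside the lysosome were read as a comparison. The list held 15 genes of the endoplasmic reticulum, Golgi and cytosol, not all of which encode a glycosidase (PRKCSH and NGLY1 do not). Of these 15, 11 rose, 3 fell and 1 did not pass (median log2 fold change 0.28). A rise was thus not restricted to the lysosomal enzymes. MAN1A1, a Golgi mannosidase, rose from 552 to 1132 (log2 fold change 1.04), and MAN2A1, which acts after it, rose from 937 to 1475 (0.65). MAN2C1, the cytosolic mannosidase, fell from 832 to 668 (log2 fold change -0.32), and MAN1C1, another Golgi mannosidase, fell from 237 to 169 (-0.50). The synthesis of heparan sulfate, the opposite of its breakdown, did not move in 1 direction: of 15 genes tested 6 rose and 4 fell (median log2 fold change -0.05). XYLT1 and B4GALT7, which build the linker to the core protein, rose by log2 fold changes of 0.34 and 0.54. NDST1, which places N-sulfate, fell from 1525 to 1011 (log2 fold change -0.59), and GLCE, the epimerase that makes iduronic acid, fell from 626 to 384 (-0.70). N-sulfate is the group that SGSH removes, and iduronic acid is the residue on which IDS and IDUA act.

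**Figure D4:**
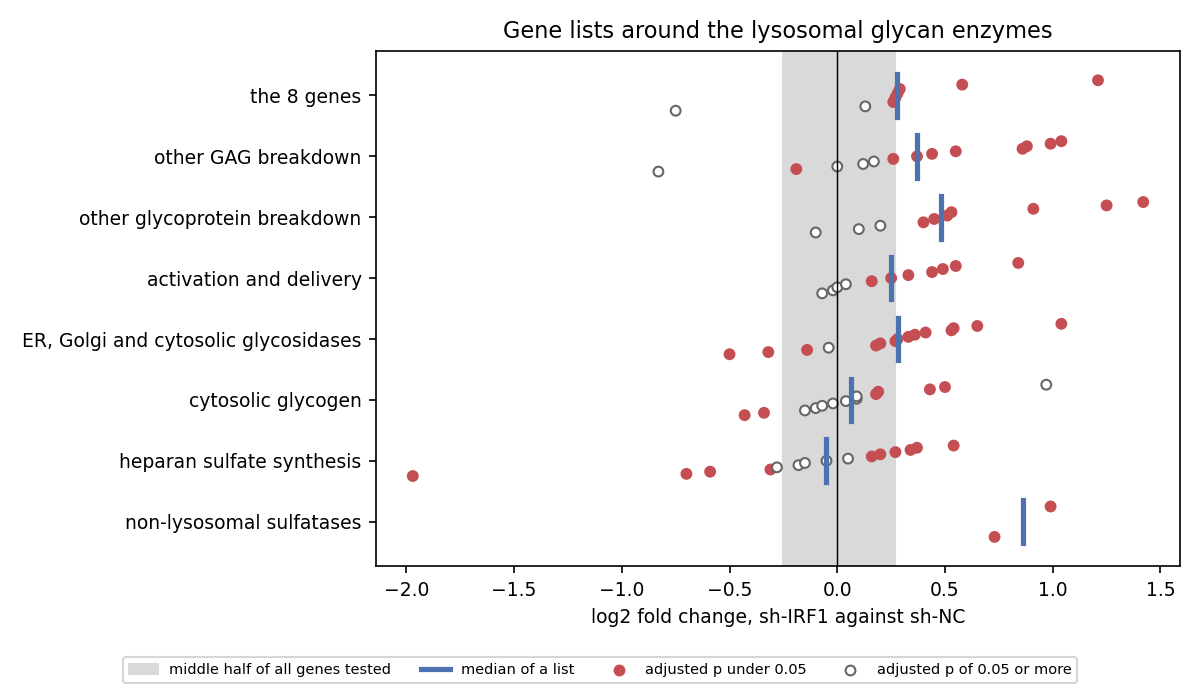
Log2 fold change after knockdown (x axis) for the tested genes of each list, 1 point per gene; filled points passed an adjusted p of 0.05, blue bars are list medians and the grey band is the middle 50% of all genes tested (-0.25 to 0.27). Medians are above 0 for the 8 genes, the lists of other breakdown enzymes and the glycosidases and related proteins of the endoplasmic reticulum, Golgi and cytosol. They are near 0 for cytosolic glycogen (0.06) and heparan sulfate synthesis (-0.05).

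The 4 MiT/TFE factors, which bind the palindrome shown above, split evenly. TFE3 was measured at 956 and 912 in sh-NC and at 1198 and 1264 in sh-IRF1, and rose (log2 fold change 0.40, limma adjusted p 3.34e-06). TFEC rose from a mean of 629 to 853 (0.44, limma adjusted p 1.34e-05). TFEB was measured at 648 and 612 in sh-NC and at 523 and 512 in sh-IRF1, and fell (log2 fold change -0.28, limma adjusted p 0.00938). MITF was scarce and fell from 53.9 to 30.8 (log2 fold change -0.79, limma adjusted p 0.0452). Neither the activity of these factors nor the part of these shifts in the levels of the 8 genes was tested. Of the enzymes with the palindrome in the bases searched, GAA (0.29), GALNS (0.26) and CTSA (1.25) rose. ARSK (log2 fold change 0.17, limma adjusted p 0.568) did not pass. The shorter CACGTG alone was found for NEU1 (1.42) and ARSB (0.86), which rose, and for HPSE (0.00), which did not pass. A relation between these matches and the changes was not tested.

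**Figure D5:**
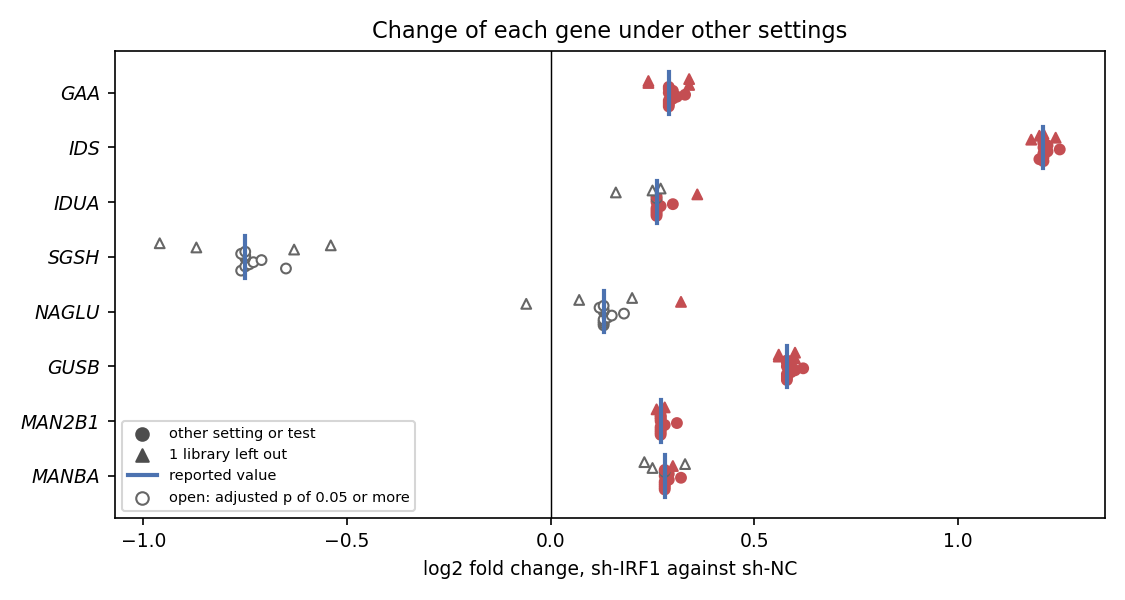
Log2 fold change after knockdown (x axis) of each of the 8 genes under other settings and tests (circles) and with 1 library left out (triangles); blue bars are the reported values and open symbols had an adjusted p of 0.05 or more. GAA, IDS, GUSB and MAN2B1 keep filled symbols throughout, IDUA and MANBA mix filled and open ones, and NAGLU spans 0.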

How the data were processed

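RNA-seq libraries of MV4-11 cells (2 sh-NC, 2 sh-IRF1) were prepared by the authors from total RNA with a TruSeq kit, which the labels name. The submitters' processing notes name HISAT2 2.0.5 and hg38. The counting tool, its annotation and its use of strand are not given in the sources used here. The deposited signal is a normalized count per gene, that is, whole reads that the authors divided by a size factor per library. Dividing by the worth of 1 read (0.937 to 1.0271) gave whole reads for 100% of values (within 0.1 of a whole number). Per the study's methods, FPKM was also computed and DESeq2 was used. Neither FPKM values nor the authors' comparisons were used here.

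The 14120 of 23622 genes that reached 10 in 2 or more libraries were tested on log2(value + 1) with limma 3.58.1 (trend and robust empirical Bayes, R 4.3.3, group as the only term), and p-values were adjusted by Benjamini-Hochberg over all of them. edgeR 4.0.16 (quasi-likelihood) and DESeq2 1.42.0 on the recovered reads, other pseudocounts, filters and scalings, a replicate block and leaving out each library served as alternatives. The test was checked on simulated data. Symbols were matched for 23456 identifiers, and positions and shared exons came from GENCODE 44 on GRCh38. The counts of replicates differed by more than sampling noise (chi-square per gene 2.52 in sh-NC and 2.37 in sh-IRF1). Named were the 8 genes, IRF1, genes or pseudogenes sharing their sequence, the 4 MiT/TFE factors and, per list, up to 2 genes with the smallest p in each direction. Some genes that this rule names are not reported here. The members and lists were chosen with earlier results of these data known.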

Additional observations from a re-analysis of the deposited data

How the results depend on the processing

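GAA (log2 fold change 0.24 to 0.34), GUSB (0.56 to 0.62), IDS (1.18 to 1.25) and MAN2B1 (0.26 to 0.31) kept their direction and their call under each of 15 alternatives, while IDUA (0.16 to 0.36) and MANBA (0.23 to 0.33) each lost the call under 4, and SGSH (-0.96 to -0.54) passed under none of the 14 in which it was tested (adjusted p 0.116 to 0.395). NAGLU was -0.06 without sh-NC replicate 1 and between -0.06 and 0.32 when single libraries were left out. Of the 8 genes, 6 rose with edgeR's quasi-likelihood test and 4 with DESeq2, and 4 to 6 rose when single libraries were left out. A fold threshold set the counts most. Beyond a log2 fold change of 0.5 and of 1, respectively, 1168 and 389 of all genes rose and 1067 and 318 fell, and 2 and 1 of the 8 genes rose. Of the 23 other enzymes 3 rose beyond 1. The count of those that fell was 1 as reported, 0 beyond either fold, 0 without sh-IRF1 replicate 2, and so 0 to 1 over the libraries left out. Total-read scaling moved the median of all genes to 0.042 and the share of higher calls from 48.1 to 56.4%, and with it the median of the 8 genes was 0.32. Same-numbered libraries did not deviate together (correlation -0.0154 over 14120 genes), so the replicate numbers name the libraries and pair none. With a replicate block, 2903 genes rose and 3147 fell, 6 of the 8 genes rose, and no call among the 8 changed. On the recovered reads, edgeR called 2955 genes higher and 3080 lower, and DESeq2, which gave no adjusted p for 9160 genes, 2312 and 2605, against 2861 and 3092 as reported. The reads behind SGSH (18 to 38) limit what can be said of it.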
